A study of Rattus norvegicus with 12 samples.

Results

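The genes described here are 63 of the genes that encode the proteins of the cytosolic ribosome, 40 of the large subunit and 23 of the small subunit, measured in rat liver. They were found by name, as probe sets that carry exactly 1 gene symbol made of Rpl or Rps and a number, with an optional a, x, y or l, or the symbols Rplp0, Rplp1, Rplp2 and Rpsa. S6 kinases (Rps6k) were left out, as were Rps15a, Rps19, Rps9, Rpl41 and Rpl39. This gave 225 probe sets, 153 of the large and 72 of the small subunit, of 15310 probe sets with 1 symbol, which stand for 14506 genes. Where a gene had several probe sets, it is shown by the one with the highest mean over all 12 arrays.

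The livers came from 12 male Sprague-Dawley rats of a diet-induced obese strain, 20 weeks old, with 4 rats for each of 3 diets. All rats ate a high fat, high sucrose diet freely for 8 weeks, from 12 weeks of age, with 4.6 kcal per gram and 10% of energy as protein. Protein came from skim milk powder in the dairy diet, the leucine diet had 7.1% of energy as casein and 2.9% as free leucine, and the control diet had casein alone. Dairy protein cannot be told apart here from the other parts of skim milk, nor added leucine from less casein. Each liver sample was hybridised to 1 Affymetrix Rat Gene 1.0 ST array, and the replicates, numbered 1 to 4 in each diet, are read as 1 liver per rat. Values are log2 signals, and a difference of 1 on this scale is a factor of 2 in signal. Signals of different genes depend on their probes and are not compared with each other.

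The ribosome of the cytosol joins a large (60S) subunit, where peptide bonds form, to a small (40S) subunit, which reads the mRNA, and cells make their proteins in about equal numbers. Most mRNAs of ribosomal proteins begin with a C and a run of pyrimidines, the 5′ terminal oligopyrimidine (TOP) tract, through which mTORC1, a kinase complex that responds to amino acids such as leucine, controls how strongly they are translated. An array measures the amount of mRNA and not its translation. The genes also have many processed copies elsewhere in the genome, and it is uncertain which of them a given probe set detects.

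The RefSeq promoter table for build GRCr8 held an entry for 53 of the 63 genes, from 250 bases before to 50 bases after the annotated start. In 22 of the 53 (41.5%) the annotated transcript began with a C followed by 4 pyrimidines (C or T), against 722 of all 27457 promoters in the table (2.63%). A C followed by 5 pyrimidines lay on the transcribed strand within 10 bases before to 20 bases after the start in 39 of the 53 (73.6%), against 20.2% of all promoters. Searched on both strands of the 300 bases, CTTTCC was found in 24 of the 53 (45.3%, against 26.4% of all promoters). CCGGAAG, letters of the ETS factor motif, was found in 16 (30.2%, against 9.22%), and AAGATGG, letters of the YY1 motif, in 8 (15.1%, against 7.30%). Matches were counted for each motif by itself, whether or not they overlapped another. The sequences below run 5′ to 3′ on the transcribed strand, from 60 bases before the annotated start to 30 bases from it, so that base 61 is the start. They are shown for the 3 genes with the highest and the 3 with the lowest difference between dairy and casein livers among those with an entry, to set the ends of that range side by side, and capitals mark matches to any of the 3 motifs on either strand. They lie, in GRCr8, at chr1:23500015-23500104 for Rps12 (plus strand), chr19:68062454-68062543 for Rpl13 (plus strand), chr7:10068086-10068175 for Rps15 (minus strand), chr1:163195747-163195836 for Rps3 (minus strand), chr2:177964577-177964666 for Rps27 (minus strand) and chr8:73566417-73566506 for Rpl4 (plus strand).
Rps12: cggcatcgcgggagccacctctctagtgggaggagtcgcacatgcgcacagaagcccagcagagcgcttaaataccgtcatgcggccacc
Rpl13: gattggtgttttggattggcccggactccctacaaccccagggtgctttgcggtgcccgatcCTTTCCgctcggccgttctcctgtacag
Rps15: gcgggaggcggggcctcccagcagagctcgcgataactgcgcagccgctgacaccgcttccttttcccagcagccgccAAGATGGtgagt
Rps3: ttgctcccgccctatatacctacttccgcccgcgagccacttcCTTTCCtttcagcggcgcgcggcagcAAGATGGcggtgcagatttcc
Rps27: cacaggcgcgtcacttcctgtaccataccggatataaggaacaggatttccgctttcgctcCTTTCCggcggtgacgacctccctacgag
Rpl4: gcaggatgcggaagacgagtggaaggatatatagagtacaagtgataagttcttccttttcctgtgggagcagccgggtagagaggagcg
Of these 6, the annotated starts of Rps15 and Rps27, 1 at each end of the range, were a C followed by 4 pyrimidines. Over the 53 genes, the median difference between dairy and casein livers was 0.30 with such a start and 0.29 without it. It was 0.35 for the genes with the pyrimidine run near the start and 0.16 for those without it, and these medians were not tested. A match of letters is a description of these windows and not a binding site.

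Before the diets are compared, 2 arrays need to be named. Dairy replicate 3 and casein replicate 4 had the narrowest spread of signals over all probe sets (SD 2.07 and 2.14), against up to 2.33 for casein replicate 1. Array medians lay between 4.43 and 4.62. The member genes of both livers often lay outside the range of the other livers of the same diet, so results are also given without casein replicate 4 and without both. The same was not counted over all probe sets, so this departure is not shown to be particular to the member genes. The hepatocyte markers were strong in every liver, with a mean log2 signal over 10 genes of 12.38 to 12.76 in dairy, 12.51 to 12.76 in leucine and 12.65 to 12.94 in casein livers.

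Averaged over the genes of a subunit, the signal was highest in dairy and lowest in casein livers. The mean log2 signal over the 23 small subunit genes was 10.13, 10.01, 9.90 and 10.12 in dairy livers, 9.89, 9.66, 9.80 and 9.84 in leucine livers, and 9.64, 9.57, 9.74 and 9.63 in casein livers. Every dairy liver lay above every leucine and every casein liver, while the leucine and casein ranges overlapped. For the 40 large subunit genes the mean was 10.19, 10.13, 9.86 and 10.27 in dairy livers, 10.03, 9.92, 10.03 and 10.06 in leucine livers, and 9.82, 9.85, 9.85 and 9.90 in casein livers. Here dairy replicate 3 lay among the casein livers, and each leucine liver lay above each casein liver. After quantile normalization, which gives all arrays the same distribution, dairy replicate 3 read 10.14 for the large subunit beside 10.13, 10.13 and 10.23 for the other dairy livers. The leucine livers then read 9.98, 9.89, 10.00 and 10.08 and the casein livers 9.68, 9.79, 9.86 and 10.00, so that the leucine and casein livers overlapped. For the small subunit, quantile normalization gave 9.99 to 10.17 in dairy, 9.62 to 9.86 in leucine and 9.50 to 9.73 in casein livers. Gene by gene, the leucine mean lay between the dairy and the casein mean for 24 of the 40 large and 16 of the 23 small subunit genes. No p is given for these means, since the genes share each array.

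**Figure D1:**
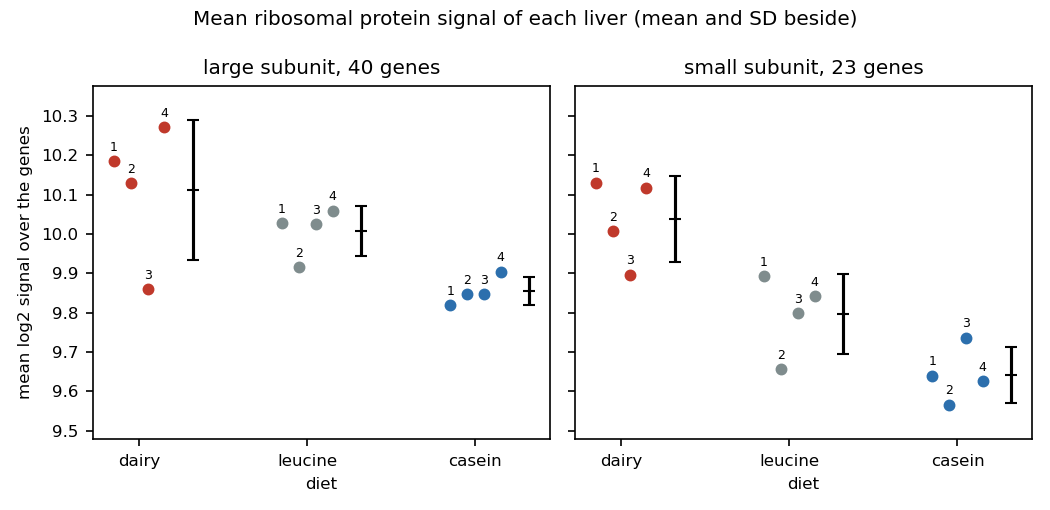
Mean log2 signal of each liver over the 40 large subunit genes (left) and the 23 small subunit genes (right), by diet; each numbered point is 1 liver (replicate 1 to 4), and the bar beside it is the mean with its SD. The 4 dairy livers sit at 9.90 to 10.13 for the small subunit, above all leucine and casein livers, with dairy replicate 3 only just above leucine replicate 1. For the large subunit dairy replicate 3 sits at 9.86, beside the casein livers.

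In dairy livers, most ribosomal protein genes of both subunits had higher signals than in casein livers, by a median of 0.23 on the log2 scale for the 40 large subunit genes and 0.46 for the 23 small subunit genes, against -0.02 over all 14506 genes. The mean was higher for 29 large and 19 small subunit genes. Without dairy replicate 3 the large subunit median was 0.35, with 34 of 40 higher, and without both dairy replicate 3 and casein replicate 4 it was 0.37, with 28 higher. No member probe set passed an adjusted p of 0.05 (limma, Benjamini-Hochberg over 15310 probe sets), and the lowest adjusted p was 0.0531 in each subunit. That count of 0 is set by how the genes were chosen, since all 13 probe sets called higher (0.0849% of 15310, with 0% called lower) belong to the 5 genes left out. At an unadjusted limma p under 0.05, 51 of 153 large subunit probe sets (33.3%) and 37 of 72 small subunit probe sets (51.4%) were higher, against 4.59% of all probe sets. None of either subunit was lower at that p, against 6.32% of all probe sets. All 4 dairy livers lay above all 4 casein livers for 37 large and 22 small subunit probe sets (24.2% and 30.6%, against 2.09% of all), and all 4 lay below for 0 (2.18% of all). The differences ranged from -0.36 to 1.02 over the large and from -0.52 to 1.33 over the small subunit genes, so the genes of a subunit did not share 1 difference.

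**Figure D2:**
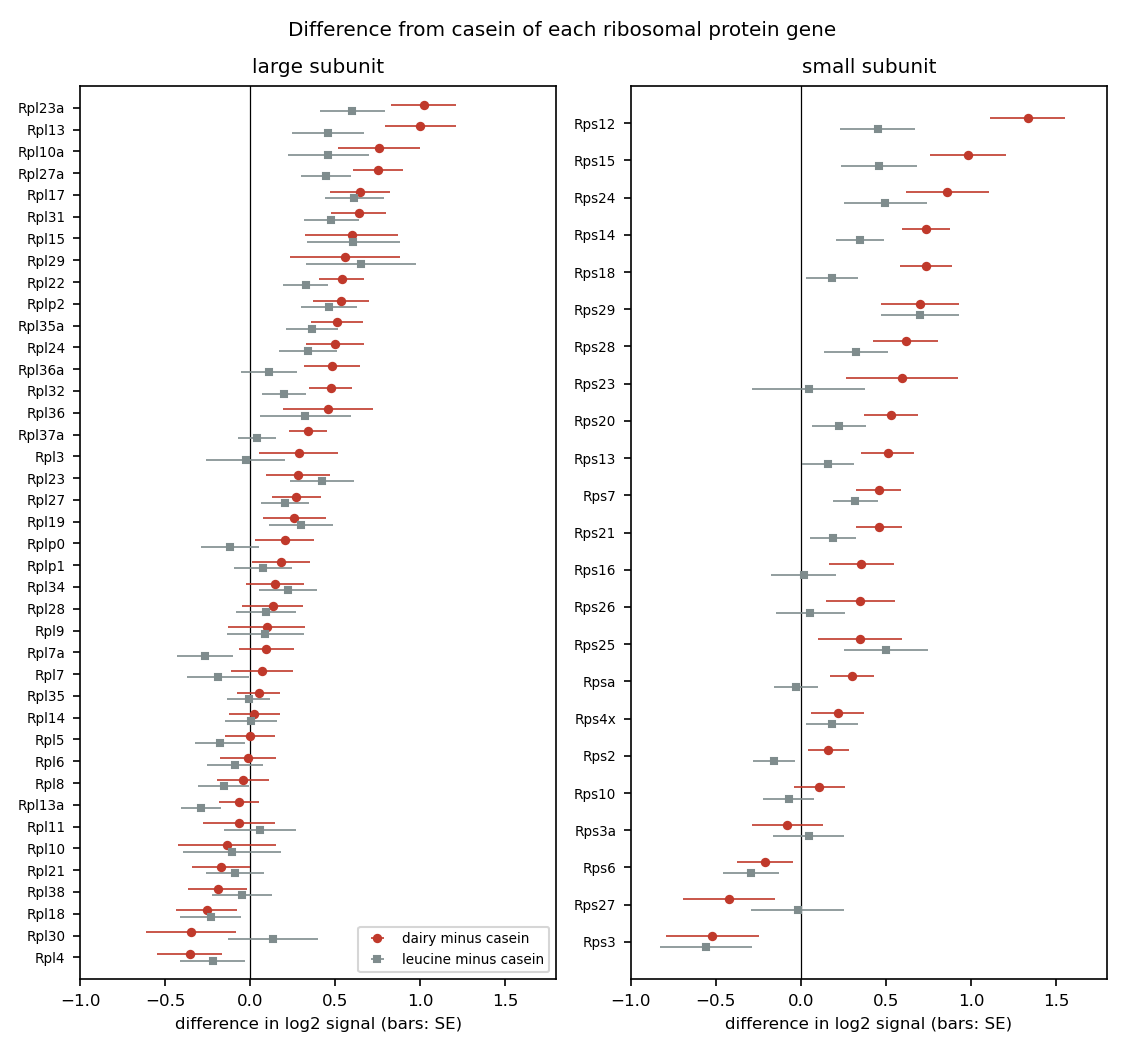
Difference from casein livers in log2 signal of each large subunit (left) and small subunit (right) gene, for dairy (red circles) and leucine (grey squares), with the SE from limma as bars; genes run from the highest to the lowest dairy difference. Rpl23a (1.02) and Rps12 (1.33) stand at the top for dairy, and Rpl4 (-0.36) and Rps3 (-0.52) at the bottom.

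Among large subunit proteins, 7 of the 8 listed at the exit tunnel, through which the new protein chain leaves the ribosome, are among the 63 genes. Of these 7, 6 had a higher mean in dairy than in casein livers, and the median difference of the 7 was 0.54. Rpl23a, which sits at the tunnel's mouth where targeting and folding factors dock, read 10.35, 10.03, 10.04 and 10.11 in dairy livers, 9.71, 9.50, 9.74 and 9.89 in leucine livers, and 8.78, 9.23, 8.80 and 9.63 in casein livers. Every dairy liver lay above every leucine and casein liver. The dairy signal was 2.03-fold that of casein (log2 difference 1.02, SE 0.19, limma adjusted p = 0.0641). Rpl17, also at the tunnel, read 10.75, 10.46, 10.17 and 10.87 in dairy livers, 10.44, 10.29, 10.64 and 10.73 in leucine livers, and 9.77, 10.15, 9.82 and 9.92 in casein livers. Dairy and leucine livers overlapped each other, and both lay above the casein livers. The difference between dairy and casein was 0.65 (SE 0.175, limma adjusted p = 0.238). Rpl22, at the outside of the tunnel's rim, and Rpl31, beside the exit, also had all dairy livers above all casein livers, with differences of 0.54 (SE 0.132) and 0.64 (SE 0.161). Rpl4, which has a loop inside the tunnel, went the other way, at 10.69, 10.84, 10.17 and 11.16 in dairy livers, 10.71, 10.83, 10.89 and 10.97 in leucine livers, and 11.32, 11.13, 10.93 and 10.92 in casein livers. The dairy and casein ranges overlapped (log2 difference -0.36, SE 0.193, limma adjusted p = 0.515), and without dairy replicate 3, the lowest liver, the difference was -0.17.

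The stalk recruits the GTPases that drive translation. Its base, Rplp0, and its acidic proteins Rplp1 and Rplp2 all had higher means in dairy livers, with differences from casein of 0.20, 0.18 and 0.53. Without dairy replicate 3, Rplp0 had 0.36 and Rplp1 0.36, and Rplp0 had 0.11 without dairy replicate 4. Rplp2 read 10.78, 10.75, 10.35 and 10.71 in dairy livers, 10.72, 10.36, 10.59 and 10.63 in leucine livers, and 9.92, 9.99, 10.01 and 10.52 in casein livers. Dairy replicate 3 was the lowest of its diet and casein replicate 4 the highest of its diet, and the ranges overlapped through these 2 livers (SE 0.166, limma adjusted p = 0.31). Without casein replicate 4 the difference was 0.67 and the limma adjusted p was 0.0458, and leaving out 1 array in turn gave 0.47 to 0.67. Rplp1 likewise read 11.11, 11.18, 10.44 and 11.11 in dairy livers, 10.92, 10.81, 10.92 and 10.76 in leucine livers, and 10.67, 10.71, 10.70 and 11.02 in casein livers. With dairy replicate 3 lowest and casein replicate 4 highest, its difference was about the size of its SE (0.18, SE 0.171, limma adjusted p = 0.723), and it was 0.11 without dairy replicate 2. Rpl10a, the protein of the mobile L1 stalk where the spent tRNA leaves, read 9.91, 10.09, 9.60 and 10.36 in dairy livers, 9.45, 9.50, 9.72 and 10.10 in leucine livers, and 9.03, 8.90, 9.11 and 9.89 in casein livers. Casein replicate 4 lay among the dairy livers (log2 difference 0.76, SE 0.24, limma adjusted p = 0.316), and without it the difference was 0.98 with a limma adjusted p of 0.0428. Leaving out 1 array in turn gave Rpl10a 0.63 to 0.98.

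Rpl5 and Rpl11, which bind 5S rRNA and, when free, hold back the p53 regulator Mdm2, did not share the higher mean. Rpl5 read 11.43, 11.47, 11.41 and 11.51 in dairy livers, 11.27, 11.24, 11.31 and 11.30 in leucine livers, and 11.26, 11.79, 11.63 and 11.15 in casein livers. The casein livers spread on both sides of the dairy livers, while the dairy livers lay above the leucine livers. The difference between dairy and casein was -0.00 (SE 0.148, limma adjusted p = 0.998). Rpl11 read 11.08, 11.20, 10.64 and 11.44 in dairy livers, 11.15, 11.10, 11.17 and 11.43 in leucine livers, and 10.87, 10.78, 11.45 and 11.51 in casein livers. All 3 diets overlapped, and the difference was -0.06 (SE 0.211, limma adjusted p = 0.932), with a sign that turned in several other settings. The 3 proteins around the peptidyl transferase centre, where the peptide bond forms (Rpl3, Rpl8 and Rpl10), had a median difference of -0.04 with 1 of 3 higher. Rpl13a, which in human cells can leave the ribosome to silence inflammatory mRNAs, read 10.49, 10.42, 10.42 and 10.63 in dairy livers, 10.20, 10.22, 10.29 and 10.34 in leucine livers, and 10.64, 10.66, 10.46 and 10.45 in casein livers. Its leucine livers lay below those of both other diets, and dairy and casein livers overlapped (log2 difference -0.06, SE 0.118).

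The other large subunit genes nearest the threshold were Rpl27a and Rpl13, a pair of proteins of the 60S body, and Rpl32. Rpl27a read 9.96, 9.64, 9.77 and 9.79 in dairy livers, 9.37, 9.30, 9.56 and 9.71 in leucine livers, and 8.84, 9.21, 8.87 and 9.22 in casein livers. The dairy and leucine livers each lay above all casein livers. The dairy signal was 1.68-fold that of casein (log2 difference 0.75, SE 0.148, limma adjusted p = 0.0815). Rpl13 read 10.42, 10.30, 10.11 and 10.37 in dairy livers, 9.57, 9.49, 9.87 and 10.09 in leucine livers, and 8.90, 9.004, 9.46 and 9.83 in casein livers. Its dairy livers lay above all others, while leucine and casein overlapped. The difference between dairy and casein was 1.00 (SE 0.21, limma adjusted p = 0.112). Rpl32, also of the large subunit, had 0.47 by its brightest probe set (SE 0.128), while 2 of its other probe sets had 0.77 and 0.66, with limma adjusted p-values of 0.0531 and 0.0633.

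On the small subunit, all of the 23 genes that were listed for the head, the platform or the beak had higher means in dairy than in casein livers. None passed the adjusted threshold. These lists were chosen with results of these data known. The 4 small subunit genes with lower means, Rps3 (-0.52), Rps27 (-0.42), Rps6 (-0.21) and Rps3a (-0.08), are on none of them. These lists do not hold every protein of those regions. Rps3 was listed at the mRNA entry, and Rps27, which lies near the platform, was not listed. The shared direction therefore depends on which genes were listed. The beak is the tip of the head, and 2 of its 3 listed proteins are among the 63 genes, Rps10 (0.11) and Rps12 (1.33). Rps12, known in flies for its part in the competition between cells with unequal ribosomal protein doses, read 10.05, 9.59, 10.22 and 9.60 in dairy livers, 9.02, 8.62, 9.13 and 9.16 in leucine livers, and 8.51, 8.56, 9.004 and 8.04 in casein livers. The dairy livers lay above all others, and the leucine and casein livers overlapped. The dairy signal was 2.52-fold that of casein (log2 difference 1.33, SE 0.221, limma adjusted p = 0.0531), the highest difference among the 63 genes. Its adjusted p went to 0.0452 over all probe sets of the file and to 0.0496 after quantile normalization, so its side of the threshold depends on such choices.

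All 4 listed head proteins were higher in dairy than in casein livers, with a median difference of 0.62. Rps18, which contacts the large subunit, read 9.75, 9.37, 9.84 and 9.31 in dairy livers, 9.16, 8.89, 9.06 and 8.96 in leucine livers, and 8.64, 8.93, 8.92 and 8.86 in casein livers. Dairy livers lay above both other diets, which overlapped (dairy minus casein 0.73, SE 0.152, limma adjusted p = 0.109). Rps29, a zinc-binding protein of the head, read 12.24, 12.46, 11.93 and 12.45 in dairy livers, 12.48, 12.20, 12.31 and 12.09 in leucine livers, and 11.15, 11.26, 11.58 and 12.28 in casein livers. Casein replicate 4 lay within the dairy and leucine ranges, and the other 3 casein livers lay below both. The difference between dairy and casein was 0.70 (SE 0.228, limma adjusted p = 0.322), and 0.94 with a limma adjusted p of 0.0337 without casein replicate 4. Leaving out 1 array in turn gave Rps29 0.56 to 0.94.

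Of the proteins listed at the mRNA exit and platform, 5 of 6 are among the 63 genes (Rpsa, Rps14, Rps26, Rps28 and Rps21). All 5 had higher means in dairy than in casein livers (median 0.46, from 0.30 to 0.74). Rps14, whose tail helps to form the platform, read 9.85, 9.41, 9.59 and 9.46 in dairy livers, 9.18, 8.96, 9.29 and 9.33 in leucine livers, and 8.79, 8.91, 8.95 and 8.73 in casein livers. The 3 diets did not overlap, with leucine between the others, and the dairy minus casein difference was 0.74 (SE 0.142, limma adjusted p = 0.0772). Rpsa, which is also the cell surface laminin receptor, read 10.71, 10.73, 10.60 and 10.83 in dairy livers, 10.38, 10.28, 10.38 and 10.51 in leucine livers, and 10.32, 10.21, 10.49 and 10.65 in casein livers. Casein replicate 4 was again the highest of its diet and overlapped dairy (0.30, SE 0.131, limma adjusted p = 0.439).

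Proteins along the path of the mRNA's entry and of decoding differed among themselves. Rps15, whose tail reaches the decoding site, read 9.01, 8.98, 8.87 and 9.15 in dairy livers, 8.24, 8.38, 8.80 and 8.49 in leucine livers, and 7.64, 7.64, 8.10 and 8.70 in casein livers. Dairy livers lay above all others, and the dairy minus casein difference was 0.98 (SE 0.222, limma adjusted p = 0.146). Without casein replicate 4 it was 1.21 with a limma adjusted p of 0.0149, and leaving out 1 array in turn gave 0.85 to 1.21. Rps3, a protein of the mRNA entry that also has roles in DNA repair, had the lowest difference of the 63 genes. It read 11.40, 11.58, 11.18 and 11.65 in dairy livers, 11.58, 11.50, 11.19 and 11.39 in leucine livers, and 12.48, 12.21, 12.23 and 10.98 in casein livers. Casein replicate 4 was the lowest of all 12 livers and the other 3 casein livers the highest. The difference was -0.52 (SE 0.272, limma adjusted p = 0.502), and -0.85 with a limma adjusted p of 0.0336 without casein replicate 4. Leaving out 1 array in turn gave Rps3 -0.85 to -0.35. Rps6, the substrate of S6 kinase, read 10.65, 10.72, 10.68 and 10.86 in dairy livers, 10.84, 10.60, 10.56 and 10.58 in leucine livers, and 11.28, 10.997, 10.98 and 10.49 in casein livers. It followed the same order as Rps3, with casein replicate 4 lowest and the other casein livers highest (dairy minus casein -0.21, SE 0.163, limma adjusted p = 0.652). The difference was -0.36 without casein replicate 4 and -0.10 without casein replicate 1. Rps27, a zinc-binding protein near the platform, was dim, at 4.89, 4.59, 4.25 and 4.98 in dairy livers, 5.41, 4.76, 4.99 and 5.17 in leucine livers, and 4.92, 4.41, 5.27 and 5.81 in casein livers. The diets overlapped (dairy minus casein -0.42, SE 0.273, limma adjusted p = 0.577), and the difference was -0.19 without casein replicate 4, -0.28 without dairy replicate 3 and -0.65 without casein replicate 2.

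**Figure D3:**
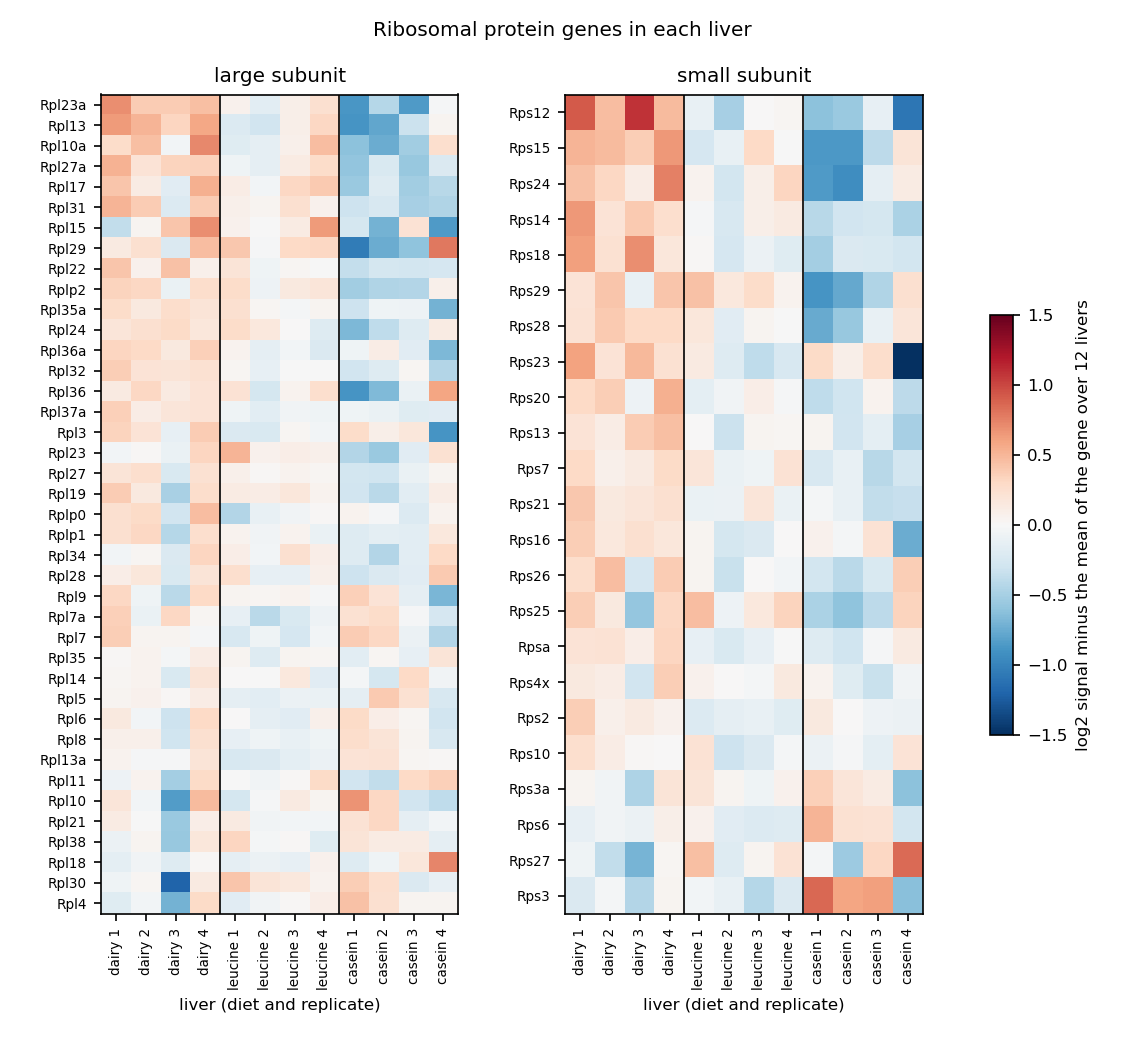
Signal of each gene (rows, ordered by dairy minus casein) in each of the 12 livers (columns), as log2 signal minus the gene's mean over the 12 livers, red above and blue below it. The upper rows are red in dairy and blue in casein livers, and casein replicate 4 departs from the other casein livers in both directions.

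Leucine livers had slightly higher signals than casein livers for most of the genes, and no gene passed the adjusted threshold. The median difference was 0.10 for large and 0.18 for small subunit genes, against -0.03 over all genes, with 26 of 40 and 17 of 23 higher. No probe set of any gene was called in either direction (0% of 15310), and the lowest limma adjusted p among members was 0.999. At an unadjusted limma p under 0.05, 35 of 153 large and 8 of 72 small subunit probe sets were higher (22.9% and 11.1%, against 1.39% of all), and 4 large and 0 small were lower (1.92% of all). Without casein replicate 4, 53 large and 13 small were higher (34.6% and 18.1%, against 3.70% of all). In that setting 11 large and 5 small were lower, against 791 of all 15310. Without dairy replicate 3, which enters through the shared spread, 14 small were higher (19.4%, against 1.84% of all). All leucine livers lay above all casein livers for 22 large and 4 small subunit probe sets (1.06% of all) and below them for 4 large and 1 small (1.38% of all). Among the highest differences were those of Rps29 (0.70, SE 0.228), Rpl29 (0.65, SE 0.323), Rpl17 (0.61, SE 0.175) and Rpl23a (0.60, SE 0.19). Rps29 and Rpl29 overlapped through casein replicate 4. Genes with separate groups and a higher leucine level were Rpl17, Rpl22, Rpl27a, Rpl31, Rpl35a, Rps14 and Rps7, and those with a lower level were Rpl13a (-0.29, SE 0.118) and Rps2 (-0.16, SE 0.121). Rps2, at the mRNA entry, read 11.14, 11.21, 11.24 and 11.16 in leucine livers and 11.49, 11.35, 11.27 and 11.26 in casein livers, a gap smaller than the spread within casein.

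Dairy livers had higher signals than leucine livers for 28 of 40 large subunit genes, with a median difference of 0.09, and for 20 of 23 small subunit genes, with a median of 0.30, against 0.01 over all genes. Without dairy replicate 3 the large subunit median was 0.17 with 37 of 40 higher. With each array centred on its median it was 0.037 with 24 of 40 higher. No probe set of any gene passed the adjusted threshold in either direction (0% of 15310), with lowest limma adjusted p-values of 0.657 for the large and 0.604 for the small subunit. At an unadjusted limma p under 0.05, 26 of 153 large and 23 of 72 small subunit probe sets were higher (17.0% and 31.9%, against 3.3% of all), and 0 were lower (3.65% of all). These counts depended on the scaling of the arrays. After centring, 13 large and 12 small were higher (8.50% and 16.7%, against 2.16% of all), with 1 large lower. Counted by gene, that was 1 of 40 large (2.5%) and 4 of 23 small subunit genes (17.4%). After quantile normalization, 35 large and 38 small probe sets were higher (22.9% and 52.8%, against 4.33% of all). Without dairy replicate 3, 23 large and 35 small were higher (3.46% of all). All dairy livers lay above all leucine livers for 28 large and 29 small subunit probe sets (18.3% and 40.3%, against 3.04% of all) and below for 0 (2.04% of all). Rps12 had the highest difference (0.88, SE 0.221, limma adjusted p = 0.604), and Rps18 (0.55, SE 0.152), Rpl13 (0.54, SE 0.21) and Rps14 (0.39, SE 0.142) were also higher. Rpl37a, a zinc-binding protein of the large subunit, read 10.90, 10.66, 10.72 and 10.74 in dairy livers and 10.48, 10.38, 10.49 and 10.48 in leucine livers, with no overlap (0.30, SE 0.112). Rpl30, a small protein of the large subunit, had the lowest difference (-0.48, SE 0.264, limma adjusted p = 0.742), at 11.23, 11.34, 10.10 and 11.44 in dairy livers and 11.72, 11.49, 11.46 and 11.35 in leucine livers. Dairy replicate 3 lay far below the other dairy livers there, and without it the difference was -0.17. Whether the 2 diets differ in their distance from casein is this same comparison, and it was called for no member.

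Probe sets of the same gene mostly varied together, as far as they measure the gene itself and not its copies. Of the 63 genes, 48 had several probe sets. The median correlation between a gene's probe sets over the 12 arrays was over 0.9 for 37 of the 48, which share the arrays and often probe sequence. For Rps12, 4 probe sets differed between dairy and casein by 1.15 to 1.33, and for Rpl13, 7 probe sets by 0.53 to 1.00. Rpl21, a protein of the large subunit, had 21 probe sets, all lower in dairy livers, by -0.29 to -0.12, and so takes 21 of the 43 lower large subunit probe sets. In 5 genes the probe sets had different signs: Rpl31 (-0.20 to 0.68), Rpl28 (-0.14 to 0.20), Rpl6 (-0.01 to 0.34), Rpl7a (-0.08 to 0.29) and Rpl5 (-0.00 to 0.29). For Rpl31 the sign given above is that of its brightest probe set. Median correlations were lowest for Rpl24 (-0.01), Rpl6 (0.09) and Rpl5 (0.33).

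**Figure D4:**
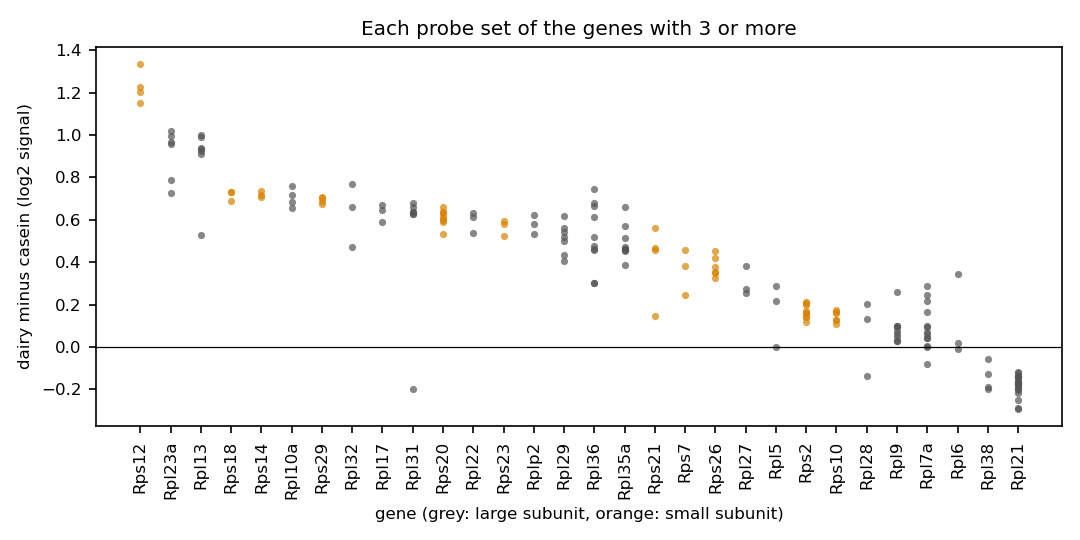
Dairy minus casein difference in log2 signal of each probe set of the 30 genes with 3 or more probe sets, ordered by median; each point is 1 probe set, grey for the large and orange for the small subunit. The 21 probe sets of Rpl21 lie below 0, the 4 of Rps12 lie between 1.15 and 1.33, and those of Rpl31 fall on both sides.

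Different genes varied together only weakly from liver to liver. The median correlation between pairs of genes over the 12 arrays was 0.22 for the 780 large subunit pairs and 0.38 for the 253 small subunit pairs, with 33.1% and 26.5% of pairs below 0. With the diet means removed, the medians were 0.19 and 0.10. All pairs share the same 12 arrays and their scaling, so these are descriptions only.

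Casein replicate 4 and dairy replicate 3 departed from their diets in different ways. Casein replicate 4 lay above all other casein livers for 19 of 40 large and 9 of 23 small subunit genes and below them for 15 and 10, so few genes lay inside the range of the others. Its deviations from the mean of the other casein livers ran from -1.70 for Rps23, a decoding centre protein, and -1.32 for Rps3 to 1.14 for Rpl36 and 1.59 for Rpl29, both of the large subunit. Rps23 read 10.32, 9.93, 10.21 and 9.95 in dairy livers, 9.86, 9.53, 9.34 and 9.49 in leucine livers, and 10.00, 9.81, 9.98 and 8.23 in casein livers. Its dairy minus casein difference was 0.59 (SE 0.33) and 0.17 without casein replicate 4, and of the other 3 casein livers casein replicate 2 lay below the dairy range and the others inside it. Rpl29 read 10.55, 10.66, 10.21 and 10.89 in dairy livers, 10.83, 10.40, 10.72 and 10.73 in leucine livers, and 9.37, 9.67, 9.81 and 11.21 in casein livers. Here casein replicate 4 was the highest of all 12 livers, and the difference was 0.56 (SE 0.323) with it and 0.96 (limma adjusted p = 0.0363) without it, and 0.35 without casein replicate 1. Dairy replicate 3 lay below all other dairy livers for 29 large and 11 small subunit genes and above them for 2 of each, with a median deviation of -0.25, against -0.01 for casein replicate 4. For any gene, 1 of the 4 livers of a diet is the lowest and 1 the highest. The counts were not taken over all probe sets, so they do not show a departure particular to the 63 genes. Over the 63 genes the deviations of the 2 livers had a correlation of -0.17 (rank correlation -0.21). Tissue and array as sources of these departures cannot be told apart with 1 array per liver.

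Without casein replicate 4, dairy differed from casein at a limma adjusted p under 0.05 for 34 large subunit probe sets of 9 genes (Rpl10a, Rpl13, Rpl22, Rpl23a, Rpl27a, Rpl29, Rpl32, Rpl36 and Rplp2), all higher. It also differed for 15 small subunit probe sets of 7 genes, of which Rps12, Rps14, Rps15, Rps24, Rps28 and Rps29 were higher and Rps3 was lower. Over all genes 237 probe sets were then called, and 1.05% of all 15310 were called higher. Without both dairy replicate 3 and casein replicate 4, the calls were 38 large subunit probe sets of 9 genes and 18 small subunit probe sets of 6 genes, among 164 in all. Leaving out both was chosen after seeing the data, and these counts describe how much 1 or 2 livers decide.

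**Figure D5:**
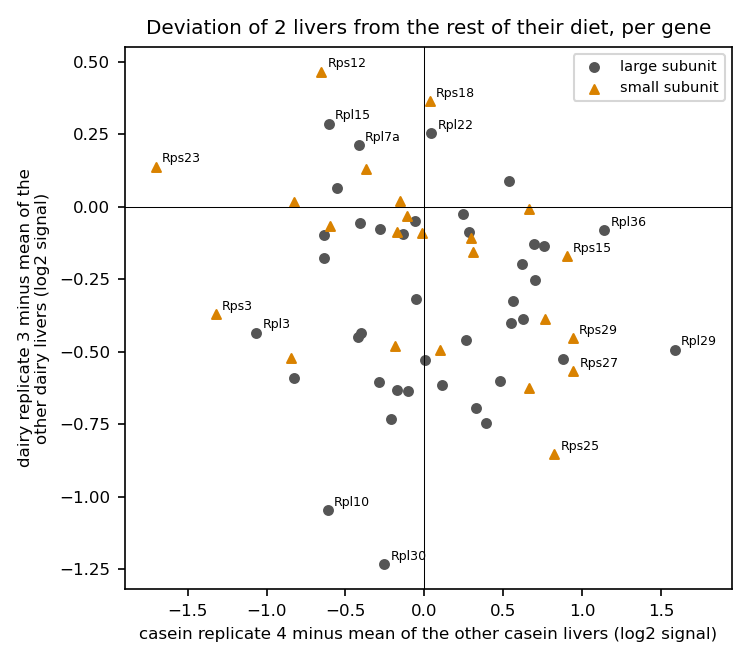
Deviation of casein replicate 4 from the mean of the other casein livers (horizontal) and of dairy replicate 3 from the mean of the other dairy livers (vertical), in log2 signal, for each of the 63 genes (grey circles large, orange triangles small subunit). Casein replicate 4 spreads from -1.70 (Rps23) to 1.59 (Rpl29), while most genes lie below 0 for dairy replicate 3.

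The 5 left-out genes, chosen because they were called in this comparison, had a mean log2 signal of 9.74 in dairy, 9.13 in leucine and 8.45 in casein livers. Of further ribosomal proteins whose names do not match the rule, 3 of 10 were measured and all were higher in dairy than in casein livers. They included Rack1, a signalling scaffold on the small subunit (0.64, SE 0.23), and Fau, whose product is cut to release a ribosomal protein (0.33, SE 0.139). Lists of genes that make or use ribosomes had more lower than higher means, to an extent that depended on dairy replicate 3 and casein replicate 4. Of 38 measured translation factors (of 44 listed), 13 were higher and 25 lower, with a median of -0.18, against 17 higher and 21 lower with a median of -0.02 without dairy replicate 3. Without casein replicate 4 they had 11 higher and 27 lower (median -0.29), and without both arrays 15 and 23 (-0.13). Their mean signal was 8.31, 8.62, 7.94 and 8.89 in dairy livers, 8.56 to 8.86 in leucine livers and 8.45 to 8.80 in casein livers, so that the dairy livers held both the lowest and the highest value. Eif3h, a subunit of the initiation factor eIF3, had -0.78 (SE 0.192). Of 61 ribosome biogenesis genes (of 69), 15 were higher and 46 lower, with a median of -0.21, and 31 higher and 30 lower with a median of 0.0084 without dairy replicate 3. Without casein replicate 4 they had 16 higher and 45 lower (median -0.27), and without both arrays 22 and 39 (-0.07). Their mean signal was 6.11 to 7.26 in dairy, 6.52 to 7.39 in leucine and 6.54 to 7.53 in casein livers. Of 13 genes between mTORC1 and translation (of 18), 5 were higher and 8 lower, with a median of -0.12, and without dairy replicate 3 the median was -0.07. It was -0.10 without casein replicate 4 and -0.10 without both arrays, each with 4 higher and 9 lower. The 13 genes included Eif4ebp1, which blocks cap-dependent translation when mTORC1 is off (0.76, SE 0.313), and Rps6kb1, the S6 kinase gene (-0.60, SE 0.293). Of 68 mitochondrial ribosomal proteins, 28 were higher and 40 lower, with a median of -0.05, and without dairy replicate 3, 35 were higher and 33 lower. Without casein replicate 4, 26 were higher and 42 lower (median -0.11), and without both arrays 31 and 37 (-0.03). None of these genes other than those left out passed the adjusted threshold. The lists were chosen with results of these data known.

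Markers of blood and other liver cells were compared the same way, since in bulk tissue a share of cells and the RNA per cell cannot be told apart. None of their genes passed the adjusted threshold. Of 9 measured erythroid markers, 8 were higher in dairy than in casein livers, with a median of 0.16, and their mean signal was 5.40 to 5.75 in dairy, 5.12 to 6.83 in leucine and 5.06 to 5.36 in casein livers. Hbb, a globin chain, had a difference of 1.07 (SE 0.427). Against casein, all 9 were higher in leucine livers, with a median of 0.41. So were all 11 neutrophil markers (median 0.39), and 0 of 10 hepatocyte markers (-0.13). The other lists had 3 of 8 stellate (-0.03), 5 of 9 lymphocyte (0.02) and 6 of 10 Kupffer cell and macrophage markers (0.06) higher in leucine livers. Endothelial markers had 4 of 6 (0.07) and cholangiocyte markers 2 of 5 (-0.02) higher there. Of 11 neutrophil markers 9 were higher in dairy livers, with a median of 0.37 and a mean signal of 3.62 to 5.36 in dairy, 3.52 to 5.54 in leucine and 3.36 to 5.02 in casein livers. Of 8 stellate cell markers 6 were higher (median 0.35). Of the 10 hepatocyte markers 1 was higher (median -0.14). Lymphocyte markers had 5 of 9 higher (median 0.05), Kupffer cell and macrophage markers 4 of 10 (-0.07), endothelial markers 1 of 6 (-0.25) and cholangiocyte markers 1 of 5 (-0.08). Without dairy replicate 3, 4 of the 10 hepatocyte markers were higher, the neutrophil median was 0.61, the lymphocyte median -0.0065 and the Kupffer cell and macrophage median 0.10, while the endothelial median was -0.12 and the cholangiocyte median -0.04. Without casein replicate 4 the erythroid median was 0.25, the lymphocyte median 0.013 and the Kupffer cell and macrophage median 0.058. Of the 10 hepatocyte markers, 0 were then higher (median -0.20), and 2 were higher without both arrays (median -0.08). The part of these cells in the ribosomal protein signals was not tested.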

How the data were processed

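Rat Gene 1.0 ST arrays (Affymetrix) gave 1 measurement for each of 12 livers, 4 per diet. The deposited values are log2 signals. Per the submitters' processing notes, the authors used Affymetrix Expression Console, and its version, summarisation, normalization and genome build were not given in the sources used here. All 29214 probe sets of the file lie between 1.06 and 14.37. Gene symbols came from the platform's annotation table: 15310 had 1 symbol, 323 several and 13581 were not listed. The Entrez ID of 224 of the 225 member probe sets was found in RefSeq, with the same symbol, and 5 repeated another exactly. The number of arrays limits the precision.

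Diets were compared with limma 3.58.1 (R 4.3.3), by lmFit with a mean for each of 3 diets over 12 arrays and eBayes. The residual degrees of freedom were 9 and the prior ones 3.45. The tests were two-sided, with the Benjamini-Hochberg adjustment taken over 15310 probe sets and a threshold of 0.05. The fit was tested on simulated data. Nothing in the labels says how samples were taken beyond the replicate number, so p-values measure the spread between these samples. Replicate numbers are not taken to pair the samples, though these values cannot exclude a pairing. Correlations of same-numbered deviations ran from -0.505 to 0.590 and were over 0.1 in 7 of 12 pairs. Those of different numbers ran from -0.599 to 0.645.

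Members, lists, roles and tests were chosen with earlier results of these data known. Named genes were the stalk proteins, Rpsa, Rps6, Rpl5, Rpl11, Rpl13a and Rps18, and up to 3 genes each way per subunit and comparison with the smallest unadjusted p. Rpl32, Rpl10a, Rpl17, Rpl31, Rpl22, Rpl29, Rpl36, Rps15, Rps24, Rps28, Rps29 and Rps23, where the rule did not reach them, were added after their values were seen, as were the genes listed as not overlapping. Alternatives were quantile normalization, median centring, all probe sets of the file, leaving out the dimmest 25%, trend and robust eBayes, array weights, the 8 arrays of each comparison alone, a replicate block, the mean of a gene's probe sets and leaving out each array. Leaving out both arrays of narrowest spread, and the gene lists without either, were chosen after seeing the data.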

Additional observations from a re-analysis of the deposited data

Results flagged for a closer look

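In each diet, the highest or lowest of the 4 livers was compared with the other 3 by Dixon's ratio at its critical value for 4 samples for all 63 genes and both subunit means, 195 groups of 4 in all, and 18 groups passed. Chance flags about 1 in 20 groups. The genes share arrays, so the flags are not independent. Of the 18, 4 belong to dairy replicate 3 and 4 to casein replicate 4, the arrays of narrowest spread.

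Dairy replicate 3 was low for Rpl30 (10.10, others 11.23 to 11.44), Rplp1 (10.44, others 11.11 to 11.18), Rplp2 (10.35, others 10.71 to 10.78) and Rpl27 (8.97, others 9.404 to 9.46). Casein replicate 4 was high for Rplp1 (11.02, others 10.67 to 10.71) and Rplp2 (10.52, others 9.92 to 10.01). It was low for Rpl3 (7.47, others 8.45 to 8.63) and Rps23 (8.23, others 9.81 to 10.00).

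The other dairy liver that stood apart was dairy replicate 1 for Rpl7 (10.65, others 10.26 to 10.32). Leucine replicate 1 was high for Rpl21 (11.22, others 11.03 to 11.04), Rpl23 (9.12, others 8.68 to 8.70) and Rps6 (10.84, others 10.56 to 10.60). Leucine replicate 2 was low for Rpl35 (10.27, others 10.49 to 10.505), Rpl37a (10.38, others 10.48 to 10.49) and Rps13 (7.34, others 7.67 to 7.71). Leucine replicate 3 was high for Rpl31 (10.17, others 9.98 to 10.00) and Rps21 (9.77, others 9.49 to 9.50). The other casein liver was casein replicate 1, low for Rpl22 (8.30, others 8.39 to 8.40).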

How the results depend on the processing

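Over all 15310 probe sets, dairy minus casein called 13, but 42 over all probe sets of the file, 1182 with array weights, 8 with trend and robust eBayes, 6 with the 8 arrays of the comparison alone, 22 after quantile normalization and 164 without both arrays of narrowest spread. Leaving out 1 array in turn gave 3 to 237, with 237 without casein replicate 4. Member probe sets called, 0 in each subunit as reported, were 2 large (of Rpl23a and Rpl32) and 2 small (of Rps12) over all probe sets, 54 and 36 with array weights, 2 large (of Rpl31 and Rpl32) and 1 small (Rps12) after quantile normalization, and 38 and 18 without both arrays. Leaving out 1 array gave 0 to 34 large and 0 to 15 small. The large subunit median was 0.35 with array weights and 0.37 without both arrays, and 0.16 to 0.35 leaving out 1 array. The small subunit median was 0.40 to 0.49 when 1 array was left out. Leucine minus casein called 0 to 2 of all probe sets (2 without leucine replicate 2) and dairy minus leucine 0 when 1 array was left out.

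With the replicate number as a block, dairy minus casein called 4 small subunit probe sets, all of Rps12 (limma adjusted p = 0.041), and 0 large ones, and dairy minus leucine called 1 of all probe sets. The block moved no other count of calls by over 1.5 times. Of the samples, 2 of 12 correlated best with their own number, so the numbers are not taken to pair livers.

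Rps12 passed the adjusted threshold in 7 of the 22 settings, among them without casein replicate 3 (limma adjusted p = 0.0395). Directions that turned belonged to differences near 0. In dairy minus casein, Rpl11 was 0.28 with array weights, 0.062 after quantile normalization and 0.21 without both arrays, and -0.19 to 0.087 leaving out 1 array. Rpl5 was 0.075 and Rpl13a 0.0088 after quantile normalization, and Rpl5 was -0.10 to 0.11 leaving out 1 array. In dairy minus leucine, Rpl38 was 0.0016 with array weights and 0.0075 without both arrays, where Rps25 was 0.0595 and Rps3a 0.0030. Leaving out 1 array gave -0.24 to 0.0075 for Rpl38, -0.26 to 0.0595 for Rps25 and -0.21 to 0.0030 for Rps3a. The causes were not tested. Signals of dim genes such as Rps27 lie near the array medians, where log2 differences may understate changes, which was not tested.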
